A study of Mus musculus with 2 samples.

Results

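The miR-30 family guide arms (mmu-miR-30a-5p, mmu-miR-30b-5p, mmu-miR-30c-5p, mmu-miR-30d-5p and mmu-miR-30e-5p, written below without the species prefix mmu for mouse) were measured in plasma extracellular vesicles (EVs) of C57BL/6 and BALB/c mice. They were found by their exact names among the names of the array probes, and each had 1 of the 1900 miRNA spots. In both strains the femoral vessels of the left hindlimb had been ligated and cut at an age of 8 weeks, and blood was drawn 24 h later. The study compared a strain whose limb blood flow recovers, C57BL/6, with one whose blood flow does not, BALB/c. Male mice of both strains were used, and each strain was represented by a pool of 5 mice hybridised to 1 array, so that no replicates, no SD between mice and no test between the strains can be given. No mice without ligation were on the arrays, so that the strain and its response to ligation cannot be told apart. The study describes an exosome RNA kit for these EVs, whereas the sample labels name a miRNA kit and cells as the source.

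miRNAs are short RNAs that bind mRNAs mainly through the seed, the bases near their 5′ end, and lower the output of those mRNAs. A hairpin precursor yields a 5p and a 3p arm, and in the miR-30 family the 5p arm is usually the one kept as the guide strand. The family is broadly expressed, with high levels in kidney, heart and lung. In human endothelial cells and in zebrafish, miR-30 members are known to repress the Notch ligand DLL4 and thereby affect the sprouting of vessels. Measured against the empty spots of each array, all 5 guide arms were detected in the EVs of both strains, whereas 9.37% of all miRNA spots were. Not all 5 stood out from the brightness around their own spots.

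The members for which a sequence was at hand had the bases GUAAACA at positions 2 to 8, the seed. They are shown because a nearly common sequence sets how well array probes can separate them. The sequences of 3 of the 5 guide arms were matched by name in RefSeq's miRNA table for the mouse build GRCm38.p6, and the seed is in capitals:
miR-30a-5p: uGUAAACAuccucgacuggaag
miR-30e-5p: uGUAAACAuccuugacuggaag
miR-30c-5p: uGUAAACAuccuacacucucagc

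The first lies at chr1:23272274-23272295 on the plus strand, and the second at chr4:120772660-120772681 on the minus strand. miR-30c-5p is made from 2 hairpins, at chr1:23291714-23291736 (plus strand, Mir30c-2) and at chr4:120769584-120769606 (minus strand, Mir30c-1). A spot therefore cannot tell which hairpin its miR-30c-5p came from. The genes come in neighbouring pairs. Mir30a and Mir30c-2 are separated by 19361 bases and Mir30c-1 and Mir30e by 2983 bases, and Mir30b and Mir30d are also neighbours. Mir30c-1 and Mir30e lie within the bounds of Nfyc, which encodes a subunit of the transcription factor NF-Y. Counted from the 5′ end, miR-30a-5p and miR-30e-5p were identical at 21 of 22 bases, and the one substitution was C13U. miR-30a-5p and miR-30c-5p shared their first 12 bases and differed at 5 of 22 positions (C13A, G14C, G18C, G19U and A20C). How much RNA of one member a spot of another member takes up was not measured, so how far the 5 values are separate cannot be told.

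Spot intensities were read as deposited, in arbitrary units of Cy5 fluorescence, before any background correction. The background of each array was the mean of its empty spots, called BLANK, after leaving out the highest and lowest 5% of 896. It was 98.3 in C57BL/6, with an SD of 3.62, and 102 in BALB/c, with an SD of 4.02. A miRNA was called detected above this mean plus 2 SD, that is above 106 and 111 in these strains. By this threshold, 638 of 1900 miRNAs (33.6%) were detected in C57BL/6 and 187 (9.84%) in BALB/c, and 178 were shared. The brightest guide arm was miR-30c-5p, with an intensity of 210 in C57BL/6 and 156 in BALB/c. miR-30d-5p followed with 186 in C57BL/6 and 142 in BALB/c. miR-30b-5p had 175 in C57BL/6 and 139 in BALB/c. Their distance from the background was 21.3 to 30.9 SD in C57BL/6 and 9.08 to 13.2 SD in BALB/c. miR-30a-5p had 163 in C57BL/6 and 128 in BALB/c. miR-30e-5p was the dimmest, with 137 in C57BL/6 and 118 in BALB/c. It lay 10.6 SD above the background in C57BL/6 and 3.83 SD above it in BALB/c, the smallest margin in the family. Among all 1900 miRNA spots, the members ranked 108 to 209 by intensity in C57BL/6 and 49 to 126 in BALB/c. Among the 178 shared miRNAs they ranked 91 to 136 in C57BL/6 and 49 to 124 in BALB/c, so that each member stood higher in the BALB/c order.

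**Figure D1:**
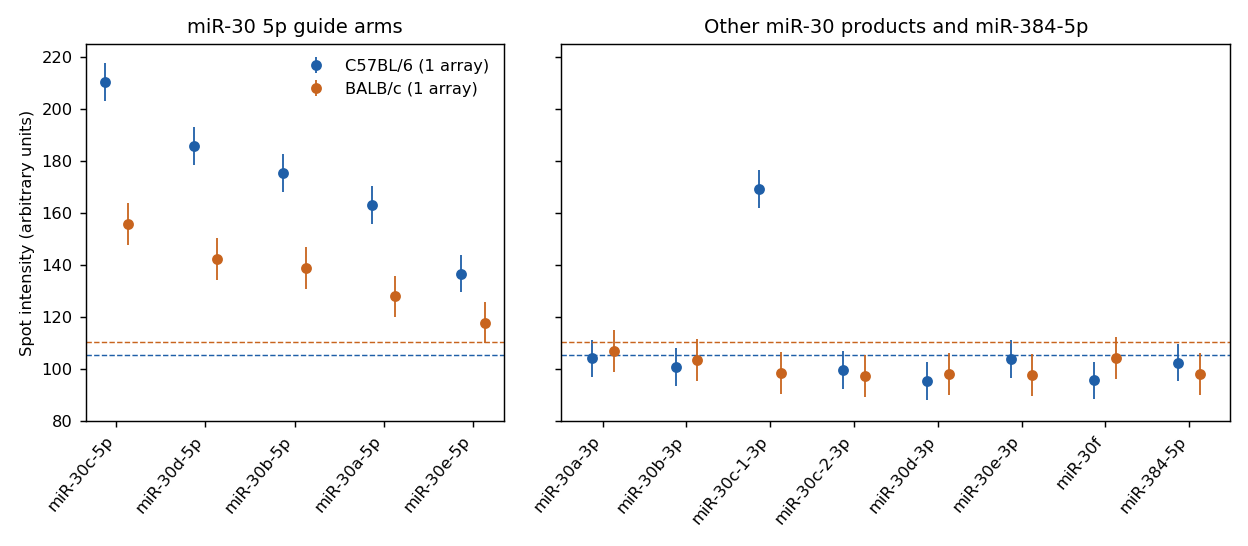
Spot intensity (arbitrary units, axis from 80) of the 5 guide arms, the other miR-30 products and miR-384-5p on the C57BL/6 array (blue) and the BALB/c array (orange). Bars are 2 SD of the BLANK spots around 1 spot, and dashed lines are the detection thresholds of 106 (C57BL/6) and 111 (BALB/c). All 5 guide arms lie above both lines, and miR-30c-1-3p at 169 in C57BL/6 is the only other value above the line of its own array.

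The order of the intensities was the same in both strains, with miR-30c-5p first, then miR-30d-5p, miR-30b-5p, miR-30a-5p and miR-30e-5p. This is an order of spots, since a spot's brightness depends on its probe as well as on the amount of RNA. The error of 1 spot was taken from S-Probe1, a control spotted 8 times, which had 140 ± 5.74 on the C57BL/6 array and 115 ± 4.62 on the BALB/c array (SD over 8 spots). This is near the brightness of miR-30e-5p and below that of the brighter members. Much brighter controls had larger SDs, such as S-Probe27 with 1134 ± 38.5 in C57BL/6 and 642 ± 41.4 in BALB/c. On the BALB/c array some dimmer controls did too, namely QC-Probe with 107 ± 26.4 over 16 spots and S-Probe7 with 104 ± 6.28. The other repeated controls dimmer than S-Probe1 had smaller SDs there. The limits below may therefore be too small for the brighter members, and in BALB/c for any member. The gap between such spots that equals 2 SD of their difference was 16.2 units in C57BL/6 and 13.1 units in BALB/c. In C57BL/6, miR-30c-5p stood above miR-30d-5p by 24.5 units and miR-30a-5p above miR-30e-5p by 26.4 units, both past this limit. The gaps of 10.4 units between miR-30d-5p and miR-30b-5p and of 12.3 units between miR-30b-5p and miR-30a-5p were within it. In BALB/c, the gap of 13.4 units between miR-30c-5p and miR-30d-5p was just past the limit of 13.1 units, which comes from a dimmer control. The 3 others, of 3.36 to 11.1 units, were within it. Measured above the brightness around each spot, the order was not the same in both strains. By that measure miR-30d-5p came first on both arrays. miR-30c-5p came last in C57BL/6, with 19.8 against 54.8 for miR-30d-5p, and had 28.2 against 38.4 in BALB/c.

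Relative to the other miRNAs found in both strains, all 5 guide arms were lower in C57BL/6. After subtraction of the background, the median shared miRNA was 3.93-fold brighter on the C57BL/6 array than on the BALB/c array, while the members were 2.10-fold to 2.54-fold brighter. The relative log2 ratio used here is the log2 of a miRNA's C57BL/6 signal over its BALB/c signal, minus the median of this value over the 178 shared miRNAs. Any single scaling factor between the arrays cancels in it. It was -0.90 for miR-30c-5p, with a range of -1.20 to -0.57 obtained by shifting the pair of signals in opposite directions by 2 SD of the BLANK intensities. miR-30b-5p had -0.90 (range -1.32 to -0.41) and miR-30d-5p -0.84 (range -1.23 to -0.40). The ranges of these 3 members stayed below 0, also with the larger SD of the repeated control spot, where they ended at -0.48, -0.27 and -0.28. That control was dimmer than these 3 members. A still dimmer control, QC-Probe, had a larger SD on the BALB/c array, 26.4 at a mean of 107, and was not used for these ranges. miR-30a-5p had -0.63 (range -1.19 to 0.07) and miR-30e-5p -0.65 (range -1.56 to 0.66), and both of these ranges included 0. These ranges cover spot noise on 1 array per strain and not the differences between mice. Below 0 by definition were 50% of the shared miRNAs, and the members ranked 42 to 61 from the lowest of 178.

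The 5 relative log2 ratios lay close together. Their highest and lowest differed by 0.27, less than the range of any single member, so that no member stood apart from the others beyond the spot noise. With the brightness around each spot subtracted as background, this difference was 1.02, with miR-30c-5p at -1.76. It was 0.47 after normexp background correction and quantile normalization. The quartiles of the 178 shared miRNAs were -0.84 and 1.32, and 15 miRNAs outside the family fell within the members' span. The genomic neighbours miR-30b-5p and miR-30d-5p had -0.90 and -0.84. miR-30a-5p, a neighbour of Mir30c-2, and miR-30e-5p, a neighbour of Mir30c-1, had -0.63 and -0.65, against -0.90 for miR-30c-5p, which both pairs share.

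The direction of the plain ratio between the strains depended on how the arrays were scaled. With both arrays scaled to the same 75th percentile of the shared miRNAs, a factor of 5.32 between the arrays, the scaled level of miR-30c-5p was 48.5 in C57BL/6 and 123 in BALB/c. miR-30e-5p had a scaled level of 16.6 in C57BL/6 and 35.5 in BALB/c. The 5 scaled ratios ran from 0.395 to 0.478, so that all 5 were at least 2-fold lower in C57BL/6, as were 36.5% of the shared miRNAs. In the authors' table of values, where each array is scaled to a median of 25 over its own detected miRNAs, the same 5 were 2.52-fold to 3.05-fold higher in C57BL/6. On that scale 82.6% of the shared miRNAs were at least 2-fold higher in C57BL/6. The authors' value of miR-30c-5p was 142 in C57BL/6 and 56.2 in BALB/c, and that of miR-30e-5p was 48.6 in C57BL/6 and 16.2 in BALB/c. The family median log2 ratio was 1.13 without scaling and 0.28 on the 2 spike controls. No scale could be preferred from these arrays, and ratios below are relative to the shared miRNAs unless a scale is named.

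**Figure D2:**
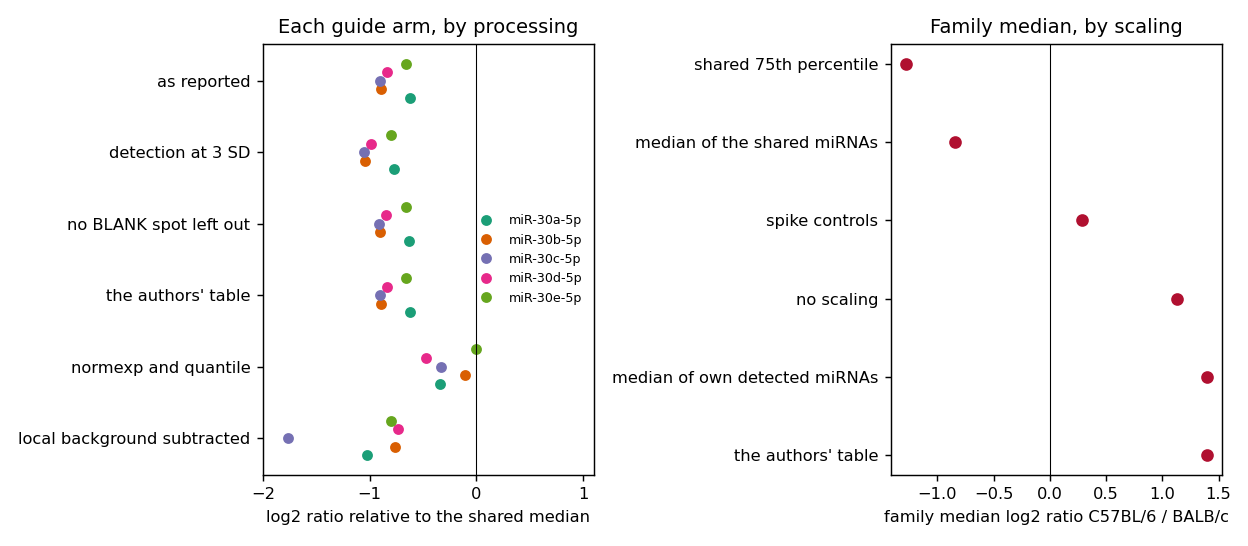
Left, relative log2 ratio of each guide arm (colours) as reported and under 5 other ways of processing. Right, the family median log2 ratio of C57BL/6 over BALB/c under 6 scalings of the arrays, from -1.28 on the shared 75th percentile to 1.39 in the authors' table. The relative values stay below 0, with miR-30e-5p at -0.01 after normexp and quantile normalization, while the plain ratio changes sign with the scaling.

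The other products of the miR-30 hairpins were mostly not detected. In this family the 3p arm is usually the passenger strand, which is mostly degraded once the guide is loaded. The spots of miR-30a-3p, miR-30b-3p, miR-30c-2-3p, miR-30d-3p, miR-30e-3p and miR-30f had 95.5 to 104 in C57BL/6 and 97.3 to 107 in BALB/c, below the thresholds of both arrays. Of the 7 other products, 6 were thus detected in neither strain, as were 65.9% of all miRNA spots. For the 4 hairpins with 1 miRNA name per arm (miR-30a, b, d and e), the 5p arm was detected in both strains and the 3p arm in neither. Among all 90 hairpins on the array whose 5p arm was detected in both strains, 52.2% had a 3p arm detected in neither. miR-30f stayed at this level although its spot touched one with an intensity of 2610 on the C57BL/6 array and 1057 on the BALB/c array.

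miR-30c-1-3p was the exception among these products. Its intensity was 169 in C57BL/6, 19.6 SD above the background, and 98.5 in BALB/c, below the mean of the BLANK spots. The 3p arm of the second miR-30c hairpin, miR-30c-2-3p, had 99.6 in C57BL/6 and 97.3 in BALB/c. Both arms are shown with bases 2 to 8 in capitals, since the hairpins give the same 5p arm and differ in these:
miR-30c-1-3p: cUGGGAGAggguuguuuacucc
miR-30c-2-3p: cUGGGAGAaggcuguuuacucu

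They lie at chr4:120769546-120769567 (minus strand) and chr1:23291754-23291775 (plus strand), and share 19 of 22 bases. Counted from the 5′ end, the substitutions from miR-30c-1-3p to miR-30c-2-3p were G9A, U12C and C22U. Since miR-30c-1-3p had no measured level in BALB/c, its ratio is a lower bound against the lowest signal detected there, with the BLANK mean as the background. It was at least 1.65-fold higher in C57BL/6 on the shared 75th percentile, at least 8.78-fold without scaling and at least 10.5-fold on the authors' scale. Of all miRNA spots, 24.2% were detected in C57BL/6 and not in BALB/c. The brightest spot touching that of miR-30c-1-3p had 130 on the C57BL/6 array. The surroundings of the spot had 141 on that array, so that the spot stood 28.5 above them, while BLANK spots stood a median of 20.1 and a 95th percentile of 31.9 above theirs. On the BALB/c array the spot stood 16.6 above its surroundings, at the BLANK median of 16.6. By this local measure, miR-30c-1-3p was within the range of the empty spots on both arrays, and no bound can be given.

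Among the miRNAs with a sequence at hand, the others that carry the bases of the seed were not detected. Of 1623 miRNA names on the array with a sequence in the table, 4 had the bases GUAAACA at positions 2 to 8. These were the 3 guide arms above and miR-384-5p, a miRNA of the X chromosome known from the brain. miR-30f carries the same 7 bases from its first position on, and is read from the strand opposite to miR-30e-3p, with which it overlaps over 19 bases. They are shown with these 7 bases in capitals, because they carry these bases outside the 5 guide arms:
miR-384-5p: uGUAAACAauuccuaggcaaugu
miR-30f: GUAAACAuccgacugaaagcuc

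miR-384-5p lies at chrX:105344332-105344354 (minus strand) and miR-30f at chr4:120772621-120772642 (plus strand). miR-384-5p had 103 in C57BL/6 and 98.0 in BALB/c, and miR-30f had 95.7 in C57BL/6 and 104 in BALB/c. Neither passed the threshold of either array, as was the case for 65.9% of all miRNA spots.

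The 3 other seed families compared here had median relative log2 ratios on the same side of 0 and nearer to it. This order holds for these 3 families and was not recomputed under the other ways of processing, and 41 of the 178 shared miRNAs lay below the lowest miR-30 member. Over the 5 miR-30 guide arms the median was -0.84. It was -0.50 over 6 of 9 guide arms of let-7 and miR-98, the family known for restraining cell growth. This median leaves out miR-98-5p, detected in neither strain, and let-7e-5p and let-7f-5p, which were detected in C57BL/6 (intensities of 111 and 127) and not in BALB/c (101 and 103). The median was -0.43 over 4 of 6 members of the miR-15/16 group, which holds miR-16-5p, an abundant miRNA of blood cells. It was -0.24 over all 6 guide arms with the miR-17 seed, known for promoting proliferation. Each of these 6 had a spot-noise range that included 0, as did some members of the other families. The median distance from the BALB/c background was 9.08 SD for miR-30, 7.16 SD for let-7 and miR-98, 15.7 SD for the miR-15/16 group and 3.98 SD with the miR-17 seed. The median of the shared miRNAs is 0 by definition. The members lay between -0.90 and -0.63 in the miR-30 family, between -0.88 and 0.71 in let-7 and miR-98, between -0.76 and -0.28 in the miR-15/16 group and between -0.73 and 0.09 with the miR-17 seed, so that all of these families overlapped miR-30. Whether the families differ was not tested, since the members of a family share the same 2 arrays and related probes. Outside the family, the 5 miRNAs with the relative log2 ratio nearest to its median were miR-378d, let-7c-5p, miR-191-5p, miR-100-5p and miR-15a-5p, all within 0.08 of it. This likeness is over 2 arrays. Of these, let-7c-5p had intensities of 182 in C57BL/6 and 142 in BALB/c, close to those of miR-30d-5p, and miR-378d lay 2.47 SD above the BALB/c background.

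**Figure D3:**
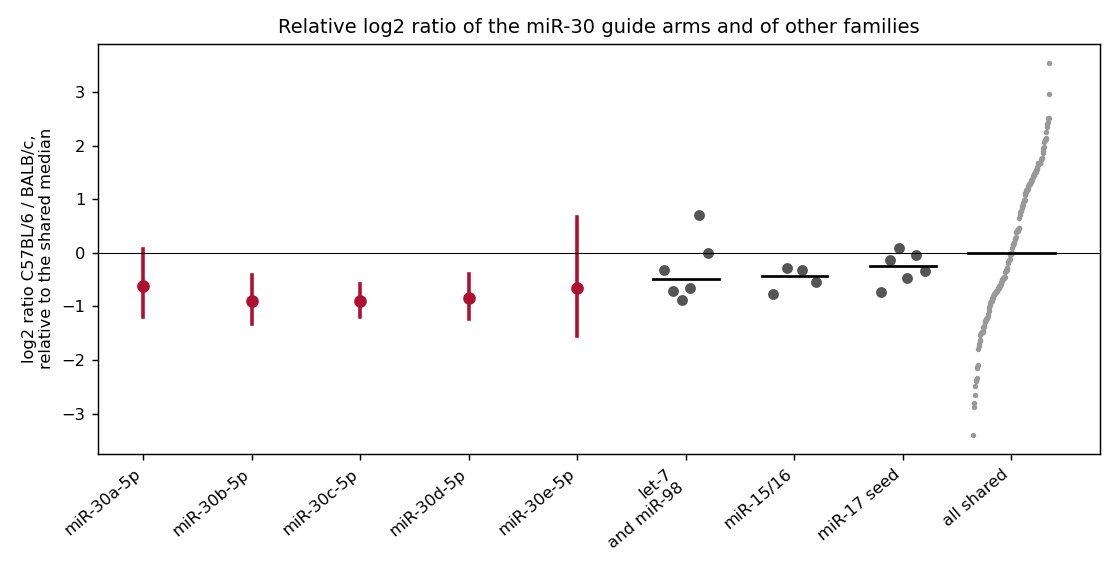
Relative log2 ratio of C57BL/6 over BALB/c for each miR-30 guide arm (red, with the range that a shift of 2 BLANK SD in each signal gives), for the members of 3 other families detected in both strains (dark grey, line at the median) and for all 178 shared miRNAs in ascending order (light grey). The 5 guide arms lie between -0.90 and -0.63, inside the span of the shared miRNAs and overlapping the other families.

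The relative log2 ratio went with base composition. Over the 150 shared miRNAs with 1 name and a sequence, its correlation with the share of G and C in the mature miRNA was 0.646 (Pearson's r) and 0.684 (Spearman's rho). With the share of G alone these were 0.688 and 0.730. With the log2 C57BL/6 signal, which is part of the ratio itself, they were higher, at 0.708 and 0.770. With the log2 BALB/c signal they were 0.231 and 0.238. These points share 1 labelling and 1 hybridisation per strain, and are not independent replicates. The guide arms were on the low side, with 45.5% G and C in miR-30a-5p, 43.5% in miR-30c-5p and 40.9% in miR-30e-5p, while the median of the 150 was 60.0%. Among the 47 other miRNAs with at most 50% G and C, the median relative log2 ratio was -0.71, the quartiles were -1.06 and -0.34, and 44 lay below 0. Among the 100 miRNAs with more than 50%, the median was 1.12 and 23 lay below 0. The values of these 3 guide arms lay between the quartiles of the 47. The part of base composition in the members' ratios was not tested.

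**Figure D4:**
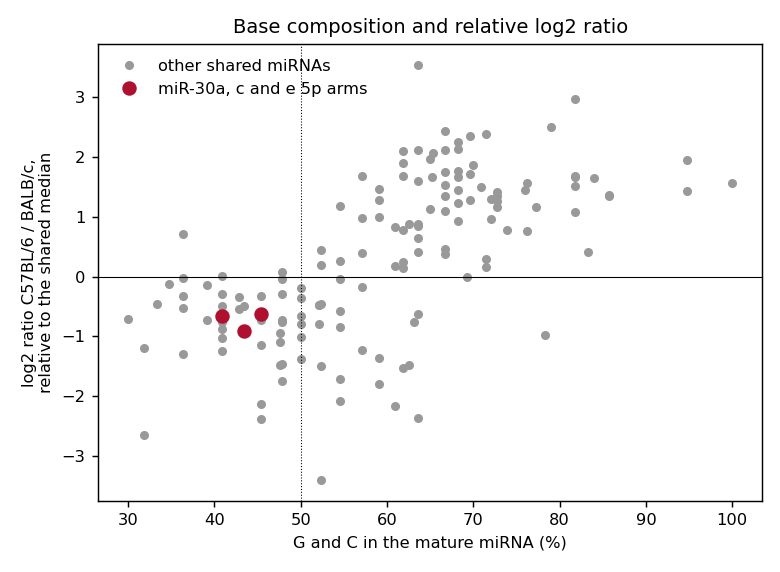
Share of G and C in the mature miRNA (%) against the relative log2 ratio of C57BL/6 over BALB/c for 150 shared miRNAs, with miR-30a-5p, miR-30c-5p and miR-30e-5p in red and the others in grey. The dotted line is at 50%, and the 3 guide arms lie among the miRNAs below it, between -0.90 and -0.63.

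The listed miRNAs known from erythrocytes and platelets were detected in the vesicles, and the 2 of brain were not. Of all miRNA spots, 9.37% were detected in both strains, 24.2% in C57BL/6 and not in BALB/c, and 65.9% in neither. Non-detection of the 2 brain miRNAs was thus the usual outcome for a spot. All 3 erythrocyte miRNAs were found in both strains, with a summed signal of 4321 in C57BL/6 and 1593 in BALB/c, most of it from miR-451a. All 4 platelet miRNAs were found in both, with a summed signal of 463 in C57BL/6 and 184 in BALB/c. The median relative log2 ratio was -0.53 for the erythrocyte and -0.69 for the platelet miRNAs, on the same side as the miR-30 guide arms and 50% of the shared miRNAs. The spot-noise ranges of miR-21a-5p (-0.31 to 0.32) and miR-486a-5p (-0.85 to 0.02) included 0. Those of the other erythrocyte and platelet miRNAs stayed below 0. The median was -2.18 for the 2 muscle miRNAs found in both strains, miR-1a-3p at -2.88 and miR-133a-3p at -1.48, further below 0 than any guide arm. miR-192-5p of liver had -1.48 (range -3.66 to 2.54). miR-150-5p, the only one of the 4 listed leukocyte miRNAs with a ratio, had 0.45 (range -0.60 to 2.97). Both of these spot-noise ranges included 0, so that the side of 0 was not settled for either miRNA. The 2 brain miRNAs were below both thresholds, as were 2 of 3 pancreas miRNAs in C57BL/6 and all 3 in BALB/c. Of 4 leukocyte miRNAs, 1 was found in both strains, 2 in C57BL/6 and not in BALB/c, and 1 in neither. The third muscle miRNA, miR-206-3p, was found in neither. Of the 2 liver miRNAs, miR-122-5p had 108 in C57BL/6, above the threshold, and 109 in BALB/c, below it, and miR-192-5p was detected in both, with 111 in C57BL/6 and 111 in BALB/c. The part of these cell types in the miR-30 values was not tested, and more vesicles cannot be told apart from more miRNA per vesicle.

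Not all members stood out from the brightness around their spots. On the C57BL/6 array, the spots stood above their own surroundings by 54.8 (miR-30d-5p), 34.9 (miR-30b-5p), 34.3 (miR-30a-5p), 22.8 (miR-30e-5p) and 19.8 (miR-30c-5p). The first 3 were above the 95th percentile of the BLANK spots of 31.9, and miR-30c-5p, the brightest member by intensity, was at about the BLANK median of 20.1. On the BALB/c array miR-30d-5p at 38.4 and miR-30a-5p at 29.4 were above the 95th percentile of 28.4, miR-30c-5p had 28.2, miR-30b-5p 24.9 and miR-30e-5p 16.6, with a BLANK median of 16.6. Among the shared miRNAs, 31 of 178 stood less above their surroundings than the median BLANK spot in C57BL/6, and 46 in BALB/c. The surroundings rose with the spots themselves over the detected miRNAs, with r of 0.965 in C57BL/6 and 0.927 in BALB/c on the log scale, a relation across spots that are not independent replicates. The spot of miR-30e-5p touched one with an intensity of 966 on the C57BL/6 array and 180 on the BALB/c array, and the brightest neighbours of the 4 others had 118 to 242 in C57BL/6 and 113 to 204 in BALB/c.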

How the data were processed

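RNA of plasma EVs was hybridised to 3D-Gene miRNA oligo chips, 1 array per strain, with Cy5 label. The deposited scanner files give the median intensity at 635 nm of each of 3200 spots and of its surroundings, with no correction. The authors' table gives 1 processed intensity per detected miRNA. The steps behind this table are not given in the sources used here. Its detection calls differed from those below for 0 miRNAs.

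The mean of the BLANK spots (45 left out at each end) was subtracted. Ratios were formed for miRNAs detected on both arrays, and set relative to the median of these. Alternatives were detection at 3 SD, all BLANK spots, the authors' table, normexp (offset 50) with quantile normalization, local background, and other scalings. The number of arrays limits the precision, and no test was run. The named miRNAs were the members, the other products of their hairpins, miRNAs with their seed, the 5 nearest in ratio, and listed families and markers. The members and lists were chosen with earlier results of these data known. The GC limit of 50%, the error from S-Probe1 and the hairpin count were added after the data were seen. The code was tested on simulated data, scored only on spots further above the BALB/c background than all members except miR-30c-5p. Local background and normexp were not simulated. Sequences came from RefSeq (GRCm38.p6), which matched 1623 of 1915 names. Python 3.11.15, numpy 2.4.6, pandas 2.3.3, scipy 1.17.1, R 4.3.3 and limma 3.58.1 were used.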

Additional observations from a re-analysis of the deposited data

How the results depend on the processing

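Of 53 values recomputed under 9 alternatives, 43 stayed within the range of the spot noise or, for counts, at the same number. Some of these could not have changed. The authors' table differs from the values used here by 1 factor per array, with 0 differing calls, so its relative values, spread and counts were bound to stay. The range was also wide for dim spots. For miR-30e-5p a move from -0.65 to -0.01 counted as within its range of -1.56 to 0.66. All 5 guide arms stayed detected in both strains, and miR-30c-1-3p stayed detected in C57BL/6 and not in BALB/c, at 3 SD, with all BLANK spots and in the authors' table. None of these settings used the brightness around each spot. Against that brightness, miR-30c-5p, miR-30e-5p and miR-30c-1-3p stayed below the BLANK 95th percentile of 31.9 in C57BL/6. In BALB/c, miR-30b-5p, miR-30c-5p and miR-30e-5p stayed below that of 28.4. The family median log2 ratio after scaling, -1.28 as reported, changed sign to 1.39 in the authors' table and with each array's own median, to 1.13 without scaling and to 0.28 on the spike controls. These settings multiply all ratios by 1 factor. With normexp and quantile normalization the relative log2 ratio moved to -0.11 for miR-30b-5p, to -0.33 for miR-30c-5p and to -0.33 for the family median, and the scaled family median to -0.35. The spread of the members was then 0.47, with miR-30d-5p at -0.47 and miR-30e-5p at -0.01, and the cause was not tested. With the local background subtracted, miR-30c-5p moved to -1.76 and the spread of the members to 1.02, against 0.27 as reported, so that the 5 ratios lay less close together under both of these settings. No relative value of a member was above 0 under these alternatives. No paired analysis was possible because each strain has 1 array. The low signal over background limits miR-30e-5p in BALB/c most.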
